A study of Homo sapiens with 4 samples.

Results

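The mRNAs of chaperones and co-chaperones were followed through a RIP-seq experiment on KIAA1429, a large scaffold subunit of the complex that places N6-methyladenosine (m6A) on mRNA. Members were taken by gene symbol: every gene total whose name began with HSPA, HSPB, HSPD, HSPE, HSPH, HSP90, CCT2 to CCT8 or a numbered DNAJA, DNAJB or DNAJC, together with TCP1. This rule found 69 of the 13300 genes in the deposited tables, and they carried 207 of the 34975 listed transcripts. The rule itself uses names and no measured value.

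All 4 libraries came from HCCLM3 cells, an established human line of hepatocellular carcinoma known for its high metastatic potential. In RIP-seq, a protein is precipitated from a lysate together with the RNA bound to it, and that RNA is sequenced. There were 2 libraries precipitated with an antibody to KIAA1429 (KIAA1429 RIP) and 2 with nonspecific IgG (IgG RIP), which measures what adheres without the specific antibody. No library of unprecipitated input RNA was analysed here, so a level in either group is a level in a precipitate and not in the cell. Cells, line and method were shared by both groups, neither group carried a transgene or drug according to the labels, and the labels do not say whether replicates came from separate cultures. The p-values therefore measure only the spread between these libraries, which may be technical.

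Molecular chaperones bind proteins that are not fully folded. The HSP70 proteins (HSPA genes) clamp short hydrophobic stretches in a cycle of ATP hydrolysis, J-domain proteins (DNAJ genes) deliver clients and trigger that hydrolysis, and HSP110 proteins act as nucleotide exchange factors that reopen the clamp. HSP90 matures kinases and steroid receptors downstream of HSP70, small HSPs hold aggregating proteins, and chaperonins enclose a client in a cavity: HSPD1 with its lid HSPE1 in mitochondria, and the CCT/TRiC ring, built from TCP1 and the CCT proteins, in the cytosol, where it folds actin and tubulin. Hepatoma cells are secretory and fast dividing, and chaperone mRNAs are abundant in them. Many chaperone genes are driven by heat shock factor 1, which binds inverted repeats of the letters GAA.

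Values were FPKM, fragment counts scaled to transcript length and to library size, summed over the listed transcripts of a gene. They are per length, so levels of different genes can be set beside each other. Contrasts between libraries also depend on how the libraries are scaled, and values are given as deposited unless stated. The 4 libraries summed to 295573 and 315446 FPKM for IgG RIP and to 337041 and 340300 FPKM for KIAA1429 RIP, and the read depth behind them is unknown, since low values did not fall on whole-read steps. The hepatocyte list was present in every library at a summed 301 to 359 FPKM with 7 of 8 genes tested, HNF4A lying below the filter. Of the epithelial genes, 3 of 4 were listed at a summed 1081 to 1427 FPKM. Most of that sum was KRT18, at 820 to 1048 FPKM, while EPCAM read 1.41 to 3.21 FPKM and CDH1 was not listed. No endothelial marker was listed, and of the fibroblast and leukocyte markers 1 of 3 was listed in each case, PDGFRB at 1.20 and 1.05 FPKM in IgG RIP, against 4.88 and 3.17 FPKM in KIAA1429 RIP, and CD68, which liver cells can also express, at 28.7 to 72.2 FPKM. The chaperone genes made up 1.08% and 0.843% of the summed FPKM in the IgG RIP libraries and 0.976% and 0.888% in the KIAA1429 RIP libraries, so the groups overlapped in that share.

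A gene total was tested where its mean over the 4 libraries reached 1 FPKM. This kept 65 of the 69 chaperone genes and 11361 genes in all. DNAJC25, DNAJC28, HSPA1L and the read-through gene HSPE1-MOB4 fell below it. The test was limma on log2(FPKM + 1), and a call needed both an adjusted p under 0.05 and a fitted log2 change larger than 1 in size. With 2 libraries against 2, an exact two-sided permutation test of a single gene cannot go below p = 0.333.

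No chaperone gene passed the test in either direction, against 0% of all 11361 genes. The lowest adjusted p of a chaperone gene in limma was 0.993, while 3 of 65 had an unadjusted p under 0.05 (HSPE1, DNAJB5 and DNAJC27), beside 4.59% of all genes. At least 2-fold higher in KIAA1429 RIP by the ratio of group means were 2 of 65 chaperone genes (HSPE1 and DNAJC19), beside 7.58% of all genes. At least 2-fold lower were 3 of 65 (DNAJB5, DNAJC27 and DNAJC5), beside 6.14%. Both KIAA1429 RIP libraries lay above both IgG RIP libraries in 12 of 65 chaperone genes, or 18.5%, against 16.6% of all genes, and below both in 7, or 10.8%, against 15.2%. These shares were near the background. The median log2 ratio of group means was 0.10 over the chaperone genes and 0.01 over all genes tested, of which the middle 80% ran from -0.73 to 0.81. The ratio was above 1 for 41 chaperone genes, or 63.1%, and for 50.6% of all genes. With each library scaled to the same FPKM sum, the all-gene median shifted to -0.15, the chaperone median to -0.06, and 28 chaperone genes had a ratio above 1. Relative to the median of all genes, 40 of the 65 lay higher both as deposited and after that scaling.

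**Figure D1:**
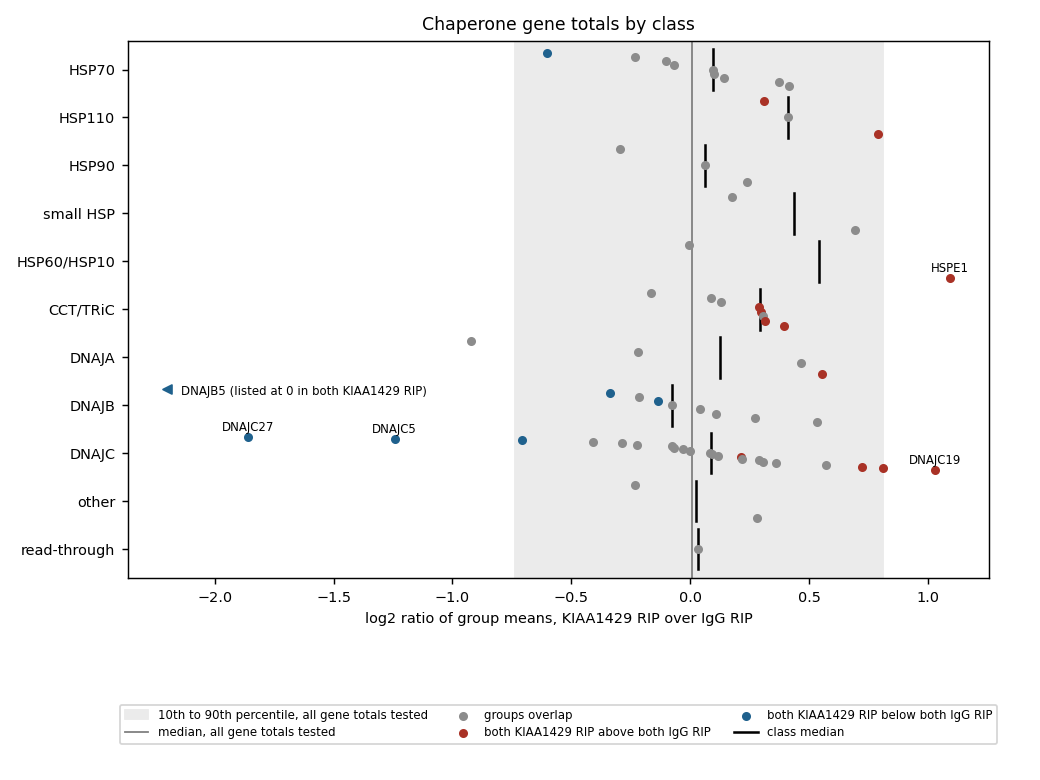
Log2 ratio of group means, KIAA1429 RIP over IgG RIP (x axis), of the 65 chaperone gene totals tested, 1 point a gene, by class (y axis). Black bars are class medians, the gray line and band the median and the 10th to 90th percentile of all 11361 genes tested; most points lie inside the band, with HSPE1, DNAJC19 and, at the edge, DNAJC21 to the right and DNAJC27, DNAJC5 and DNAJA4 to the left. DNAJB5, listed at 0 in both KIAA1429 RIP libraries, has no ratio and is drawn as a triangle at the left margin.

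HSP90AB1 and HSPA8 were among the most abundant members, and neither differed between precipitates beyond the spread of the libraries. HSP90AB1, the constitutive cytosolic HSP90, was the highest chaperone mRNA in every library, at 528 and 399 FPKM in IgG RIP, against 519 and 450 FPKM in KIAA1429 RIP. It ranked 46th, 84th, 85th and 97th among all gene totals of the respective libraries. The groups overlapped, and the limma log2 fold change was 0.07 (SE 0.34, adjusted p = 0.997). HSPA8, the constitutive cytosolic HSP70, had 269 and 274 FPKM in IgG RIP, against 274 and 306 FPKM in KIAA1429 RIP. These 4 values lie close together, and the limma fold change was 0.09 on the log2 scale (SE 0.30, adjusted p = 0.997).

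HSP90AA1, the stress-inducible cytosolic HSP90, split by replicate number and not by antibody. It read 172 and 66.5 FPKM in IgG RIP, against 130 and 64.8 FPKM in KIAA1429 RIP. Replicate 1 was well above replicate 2 in each group, and the groups overlapped. HSP90B1, the HSP90 of the endoplasmic reticulum (ER), had 82.3 and 69.0 FPKM in IgG RIP, against 104 and 74.3 FPKM in KIAA1429 RIP. HSPA5, the ER HSP70 known as BiP, had 75.5 and 85.2 FPKM in IgG RIP against 95.2 and 81.9 FPKM. Both of these ER chaperones overlapped between groups. HSPA9, the mitochondrial HSP70, read 98.2 and 51.2 FPKM in IgG RIP, against 114 and 85.3 FPKM in KIAA1429 RIP, again overlapping.

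HSPA1A and HSPA1B encode the stress-inducible HSP70. The genes lie side by side on chromosome 6 and are near-identical copies. Their coding sequences, 1923 bases each in the GENCODE transcripts of GRCh37, differed at 4 bases (99.8% identical), with an identical run of 1709 bases, so fragments from one cannot in general be told from the other. The window with the most differences follows, with differing bases in capitals, at chr6:31785379-31785438 for HSPA1A and chr6:31797573-31797632 for HSPA1B, plus strand.
HSPA1A: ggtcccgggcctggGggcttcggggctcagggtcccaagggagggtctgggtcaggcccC
HSPA1B: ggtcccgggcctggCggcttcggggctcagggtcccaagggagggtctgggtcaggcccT
HSPA1A had 16.1 and 15.6 FPKM in IgG RIP, against 11.4 and 18.9 FPKM in KIAA1429 RIP. HSPA1B had 15.3 and 17.9 FPKM in IgG RIP, against 12.5 and 18.5 FPKM in KIAA1429 RIP. Their sum, which depends less on how fragments were split, was 31.4 and 33.5 FPKM in IgG RIP, against 23.9 and 37.3 FPKM in KIAA1429 RIP. It is not free of the split, since HSPA1A-201 has 2400 bases, HSPA1A-202 has 1909 and the HSPA1B transcript 2517. KIAA1429 RIP held both the lowest and the highest library of the pair. HSPA14, a ribosome-associated HSP70, was low at 4.99 and 1.70 FPKM in IgG RIP, against 3.96 and 3.21 FPKM in KIAA1429 RIP. Of the 9 HSP70 genes tested, 5 had a ratio above 1 and the class median was 0.10 on the log2 scale. Only HSPA12A, a distant relative named here after its values were seen, had groups that did not overlap, with 2.33 FPKM in both IgG RIP libraries and 1.398 and 1.67 FPKM in KIAA1429 RIP. Without overlap, 16.6% of all genes were above and 15.2% below.

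The HSP110 genes all had a ratio above 1, as did 50.6% of all genes, and 2 of 3 were above without overlap, beside 16.6% of all genes. None passed the test. HSPA4 read 27.3 and 27.5 FPKM in IgG RIP, against 33.5 and 34.5 FPKM in KIAA1429 RIP. The KIAA1429 RIP libraries lay above the IgG RIP libraries by more than either group's spread, at a log2 ratio of group means of 0.31. limma, which pools the spread over genes, gave a log2 fold change of 0.30 (SE 0.29, adjusted p = 0.997). HSPH1 read 7.24 and 3.24 FPKM in IgG RIP, against 8.11 and 10.02 FPKM in KIAA1429 RIP, a log2 ratio of 0.79, with the IgG RIP libraries further apart than the gap between the groups. After scaling to equal FPKM sums, HSPA4 stayed above without overlap and HSPH1 did not. HSPA4L, at 0.428 to 1.53 FPKM, overlapped.

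**Figure D2:**
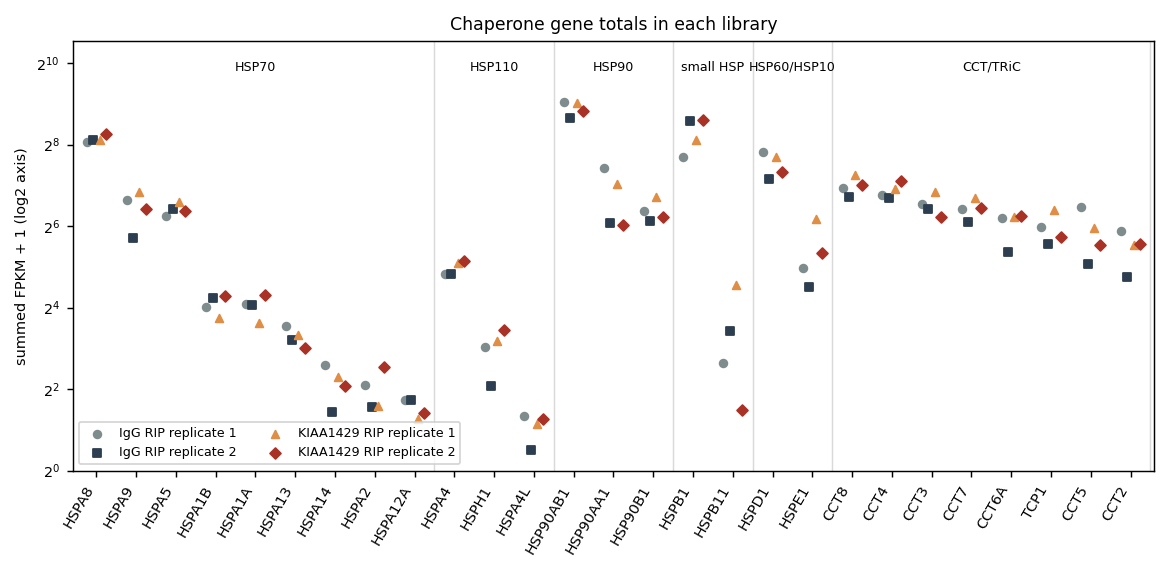
Summed FPKM + 1 (y axis, log2 scale) of the tested HSP70, HSP110, HSP90, small HSP, HSP60/HSP10 and CCT/TRiC genes (x axis), 1 point a library. For most genes the 4 points interleave. The KIAA1429 RIP points of HSPE1, HSPA4, HSPH1, CCT8, CCT4, CCT7 and, by little, CCT6A lie above both IgG RIP points.

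HSPB1, the small HSP known as HSP27, read 206 and 381 FPKM in IgG RIP, against 276 and 388 FPKM in KIAA1429 RIP. Here replicate 2 was the higher library in each group, and the groups overlapped. HSPB11 carries a small HSP symbol but is a subunit of intraflagellar transport. Named here after its values were seen, it spanned 1.83 to 22.5 FPKM within KIAA1429 RIP alone, against 5.25 and 9.78 FPKM in IgG RIP.

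The chaperonin of mitochondria gave the highest log2 ratio of all chaperone genes, in its lid and not in its barrel. HSPE1 (HSP10) read 30.3 and 21.8 FPKM in IgG RIP, against 71.6 and 39.7 FPKM in KIAA1429 RIP. Both KIAA1429 RIP libraries were above both IgG RIP libraries, at a log2 ratio of 1.09. The limma log2 fold change was 1.02 (SE 0.38), with an unadjusted p of 0.031 and an adjusted p of 0.997, so it was not called. HSPD1 (HSP60) read 225 and 142 FPKM in IgG RIP, against 207 and 159 FPKM in KIAA1429 RIP, which overlap at a log2 ratio of -0.01. HSPD1 exceeded HSPE1 by 7.43-fold and 6.51-fold in IgG RIP and by 2.90-fold and 3.99-fold in KIAA1429 RIP, so the ratio of this pair did not overlap between groups. The difference of the pair was not tested. Without KIAA1429 RIP replicate 1 the log2 ratio of HSPE1 was 0.61, and over the libraries left out in turn it stayed between 0.61 and 1.46. With equal FPKM sums it was 0.94.

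HSPE1 and HSPD1 are neighbors that are transcribed away from each other on chromosome 2, HSPE1 at 198364718 to 198368181 on the plus strand and HSPD1 at 198351305 to 198364998 on the minus strand (GRCh37, as the files give them). Exons of HSPD1 and HSPE1 share 135 bases on opposite strands, and the strandedness of the libraries is not given in the sources used here. GENCODE names 26 pseudogenes after HSPE1 and 18 after HSPD1, the highest counts among the chaperone genes. Fragments shared with such copies make both totals uncertain. HSPE1-MOB4, which reads through HSPE1 into the next gene, was listed at 3.58 FPKM in IgG RIP replicate 1 and at 0 in the other 3 libraries.

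The CCT/TRiC subunits stood close together in level and in ratio. Their 8 mRNAs ranged from 26.2 to 151 FPKM over all libraries, with 2.09-fold to 3.97-fold between the highest and the lowest subunit of a library. Of the 8, 7 had a ratio above 1, the median log2 ratio was 0.29, and 4 had both KIAA1429 RIP libraries above both IgG RIP libraries, beside 16.6% of all genes. No subunit passed the test, and all 8 had an adjusted p of 0.997 or above in limma. Scaling each library to the same FPKM sum left 0 of the 8 without overlap and a median of 0.14, while 7 of 8 still lay above the median of all genes. Without IgG RIP replicate 2 the median was 0.07, and without IgG RIP replicate 1 it was 0.50 with 7 subunits above. So the size of the CCT difference rested on which IgG RIP library it was set against. The share of all genes above was not counted with a library left out, so the 7 are not read as particular to CCT/TRiC.

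CCT8 read 121 and 104 FPKM in IgG RIP, against 151 and 128 FPKM in KIAA1429 RIP. CCT4 read 108 and 102 FPKM against 119 and 137 FPKM, and CCT7 84.9 and 68.2 FPKM against 102 and 86.7 FPKM. In these 3 subunits the lower KIAA1429 RIP library was above the higher IgG RIP library, by the least margin in CCT7. CCT6A read 72.7 and 40.0 FPKM in IgG RIP, against 73.5 and 74.7 FPKM in KIAA1429 RIP. It too was above without overlap, though IgG RIP replicate 1 was nearly level with KIAA1429 RIP. TCP1, the subunit CCT1, read 62.5 and 46.7 FPKM against 83.0 and 52.2 FPKM. CCT3 read 92.2 and 84.0 FPKM against 114 and 73.3 FPKM. CCT2 read 57.8 and 26.2 FPKM against 45.7 and 46.0 FPKM. TCP1, CCT3 and CCT2 overlapped between groups. CCT5 was the exception in sign, with 87.4 and 32.4 FPKM in IgG RIP, against 61.2 and 45.5 FPKM in KIAA1429 RIP, a log2 ratio of -0.17. Its IgG RIP libraries were further apart than its groups.

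Among J-domain proteins, the abundant cytosolic DNAJB1 and DNAJB6 were lower and DNAJA1 was higher in KIAA1429 RIP, each without overlap and none past the test. Of all genes, 16.6% were above and 15.2% below without overlap. DNAJB4, also abundant and named here after its values were seen, had a log2 ratio of 0.27 with overlapping groups. It read 101 and 45.2 FPKM in IgG RIP, against 97.5 and 78.4 FPKM in KIAA1429 RIP. DNAJB1, the stress-inducible partner of HSP70, read 121 and 115 FPKM in IgG RIP, against 83.9 and 103 FPKM in KIAA1429 RIP, a log2 ratio of -0.34 (limma adjusted p = 0.997). DNAJB6, which keeps aggregation-prone proteins soluble, read 107 and 112 FPKM against 105 and 94.6 FPKM. The gap between its groups was small beside the spread in KIAA1429 RIP. DNAJA1, the farnesylated partner of HSPA8, read 15.8 and 19.4 FPKM in IgG RIP, against 25.8 FPKM in both KIAA1429 RIP libraries, a log2 ratio of 0.55 (limma SE 0.31, adjusted p = 0.997). These directions of DNAJB1, DNAJB6 and DNAJA1 held without overlap also when libraries were scaled to the same FPKM sum, while median scaling made DNAJB6 overlap.

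DNAJA2, a close relative of DNAJA1, read 16.6 and 6.64 FPKM in IgG RIP, against 14.2 and 17.9 FPKM in KIAA1429 RIP, which overlap. DNAJB11, the J-domain partner of BiP in the ER, read 8.51 and 1.76 FPKM against 3.82 and 5.03 FPKM, with IgG RIP spanning both KIAA1429 RIP values. DNAJC3, an ER co-chaperone known as an inhibitor of the kinase PERK, read 13.6 and 9.07 FPKM against 12.4 and 9.23 FPKM. DNAJC7, a cytosolic protein that links HSP70 and HSP90, read 37.9 and 38.3 FPKM against 40.9 and 33.6 FPKM. All 4 overlapped. The DNAJA class had a median log2 ratio of 0.12 over 4 genes, the DNAJB class -0.08 over 9 and the DNAJC class 0.09 over 22. At 0.576 to 2.08 FPKM, and listed at 0 in KIAA1429 RIP replicate 2, DNAJA4 had a log2 ratio of -0.92 with overlapping groups.

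Apart from HSPE1, the members at least 2-fold apart were DNAJ genes. DNAJC19, which sits at the import motor of the mitochondrial inner membrane, read 4.45 and 5.66 FPKM in IgG RIP, against 12.3 and 8.34 FPKM in KIAA1429 RIP, a log2 ratio of 1.03. On log2(FPKM + 1) the fitted change was 0.89 (SE 0.42, limma adjusted p = 0.997), and GENCODE names 9 pseudogenes after the gene. DNAJC21 and DNAJC9 were also higher without overlap, but by less than 2-fold. DNAJC21, a ribosome assembly factor, read 11.7 and 5.27 FPKM against 12.95 and 16.8 FPKM, a log2 ratio of 0.81. DNAJC9, a J-domain protein that also carries histones, read 8.81 and 5.52 FPKM against 10.5 and 13.1 FPKM, a log2 ratio of 0.72. In KIAA1429 RIP replicate 2, 9.29 FPKM of DNAJC9 came from 1 noncoding transcript, DNAJC9-203. Its protein-coding transcript alone read 7.55 and 5.52 FPKM in IgG RIP, against 8.03 and 2.85 FPKM in KIAA1429 RIP, with the groups overlapping and a limma log2 fold change of -0.34. Exons of DNAJC9 also share 1819 bases with FAM149B1 on the opposite strand.

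DNAJC27, a small GTPase with a J domain, read 4.78 and 4.12 FPKM in IgG RIP, against 1.17 and 1.28 FPKM in KIAA1429 RIP. This was the lowest log2 ratio among chaperone genes above 0 in both groups, at -1.86, with a fitted change of -1.29 (SE 0.51, unadjusted p = 0.040, limma adjusted p = 0.997). Its protein-coding transcript DNAJC27-201 read 1.32 and 0 FPKM in IgG RIP against 1.17 and 1.28 FPKM, so the lower total came from listed noncoding transcripts. DNAJB5, a J-domain protein of the cytosol, was listed at 2.28 and 3.94 FPKM in IgG RIP and at 0 in both KIAA1429 RIP libraries (unadjusted p = 0.014, limma adjusted p = 0.993). In IgG RIP replicate 1 its FPKM lay in DNAJB5-201 and in replicate 2 in DNAJB5-203, which contains all 2391 bases of DNAJB5-201. DNAJC5, the cysteine string protein of secretory vesicles, has 1 listed transcript. It read 24.01 and 17.9 FPKM in IgG RIP, against 0 and 17.7 FPKM in KIAA1429 RIP, so its -1.24 on the log2 scale rested on KIAA1429 RIP replicate 1 alone. DNAJC30, a mitochondrial J-domain protein with 1 listed transcript, read 7.37 and 6.49 FPKM against 4.14 and 4.35 FPKM, a log2 ratio of -0.71.

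Below the gene total, listed transcripts varied more between libraries than their sums. Of the 207 chaperone transcripts, 157 were of type protein_coding and 50 of type processed_transcript, and 145 reached the filter. No chaperone transcript passed the test, against 0% of the 23375 transcripts tested, with a lowest adjusted p of 0.385 in limma and 9 unadjusted p under 0.05. At least 2-fold higher in KIAA1429 RIP were 27 chaperone transcripts, or 18.6%, beside 19.9% of all, and at least 2-fold lower were 35, or 24.1%, beside 20.3%. Among the chaperone transcripts tested, 11 were listed at 0 in both IgG RIP libraries only and 16 in both KIAA1429 RIP libraries only. In 11 genes some transcripts were higher and others lower by 2-fold or more. Shares over all transcripts were not counted for these zeros, for opposite directions or for unadjusted p, so they are not read as particular to chaperones. Zeros were common throughout: 26.6% to 32.2% of all listed transcripts were at 0 in a library, and 56 to 69 of the 207 chaperone transcripts. The Spearman correlation of the 2 replicates over the chaperone genes was 0.92 in IgG RIP and 0.90 in KIAA1429 RIP, and over the chaperone transcripts it was 0.53 and 0.60. These correlations are across genes or transcripts, which are not independent replicates. The transcripts described next were chosen after their values were seen.

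HSPD1 and HSP90AB1 show transcripts that traded places within a group. HSPD1-201 and HSPD1-202 share 2184 bases and differ at their starts. HSPD1-201 read 161 and 0 FPKM in IgG RIP, against 0.815 and 37.7 FPKM in KIAA1429 RIP. HSPD1-202 read 50.7 and 138 FPKM against 206 and 113 FPKM. IgG RIP replicate 1 stood apart from the other 3 libraries by placing most of its HSPD1 signal on HSPD1-201. The same library gave HSP90AB1-201 144 FPKM, against 1.08 FPKM in its replicate and 5.07 and 0.302 FPKM in KIAA1429 RIP, although all 2555 bases of HSP90AB1-203 lie within the 2582 bases of HSP90AB1-201. HSP90AB1-203 read 357 and 398 FPKM in IgG RIP, against 514 and 448 FPKM in KIAA1429 RIP, without overlap, while the gene totals overlapped. IgG RIP replicate 1 likewise gave CCT5-214 53.3 FPKM, which read 0 to 0.421 FPKM elsewhere. CCT5-201 then read 21.6 and 32.4 FPKM in IgG RIP, against 60.8 and 45.5 FPKM in KIAA1429 RIP, although the CCT5 totals overlapped.

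In the CCT ring, both libraries of a group agreed on transcripts that skip a coding exon. CCT8-211 leaves out exon 3 of CCT8-201, 80 bases at chr21:30441744-30441823 on the minus strand of GRCh37. CCT4-204 leaves out exon 3 of CCT4-201, 90 bases at chr2:62110594-62110683, also on the minus strand. The first length is not a multiple of 3 bases, and the second is. The transcripts differ elsewhere too, with 153 bases only in CCT8-211 and 15 only in CCT4-204, and their reading frames were not compared. These exons are printed because the presence of their letters separates the transcripts compared.
CCT8-201 exon 3: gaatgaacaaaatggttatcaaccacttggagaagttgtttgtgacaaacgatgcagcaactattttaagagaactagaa
CCT4-201 exon 3: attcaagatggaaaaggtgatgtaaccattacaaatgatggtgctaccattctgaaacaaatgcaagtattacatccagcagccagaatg
CCT8-211 was listed at 25.8 and 20.6 FPKM in IgG RIP and at 0 in both KIAA1429 RIP libraries, with the lowest adjusted p of the chaperone transcripts (0.385 in limma). CCT8-201 read 87.1 and 81.7 FPKM in IgG RIP, against 110 and 127 FPKM in KIAA1429 RIP. CCT4-204 went the other way, listed at 0 in both IgG RIP libraries and at 9.30 and 13.9 FPKM in KIAA1429 RIP (adjusted p = 0.506 in limma). CCT4-201 read 100.04 and 88.4 FPKM in IgG RIP, against 97.3 and 117 FPKM in KIAA1429 RIP, with overlap.

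Similar exchanges occurred in DNAJB12 and DNAJC21. DNAJB12, a J-domain protein of the ER membrane, had totals of 6.83 and 7.32 FPKM in IgG RIP, against 7.30 and 7.27 FPKM in KIAA1429 RIP, level to within the spread. DNAJB12-201 read 6.22 and 6.65 FPKM in IgG RIP, against 0 and 1.11 FPKM in KIAA1429 RIP. DNAJB12-202, whose 3198 bases all lie within the 4360 of DNAJB12-201, was listed at 0 in both IgG RIP libraries and read 5.93 and 2.15 FPKM in KIAA1429 RIP. DNAJC21-201 read 0.466 and 0 FPKM in IgG RIP, against 6.63 and 8.93 FPKM in KIAA1429 RIP, and it carried the difference of the DNAJC21 total. For such genes the files give an estimate of how fragments were divided among overlapping models, and its error is not listed.

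Transcript length and the letters GGAC, the commonest core of m6A sites, were read from the most abundant listed transcript. A GENCODE sequence was found for 64 of the 65 chaperone genes and for 11063 of the 11361 genes tested. The median chaperone transcript had 2526.5 bases and 3.24 GGAC per kilobase, against 2902 bases and 3.60 per kilobase over all genes. All 64 held at least 1 GGAC, as did 98.5% of all transcripts with a sequence. HSPE1, the highest ratio, had 1 GGAC in 557 bases, and DNAJB1, among the lower members, had 16 in 2242 bases. DNAJC24 and HSPA2, named here after their values were seen, went the other way. DNAJC24 had 2 GGAC in 2970 bases at a log2 ratio of -0.41, and HSPA2 had 17 in 2497 bases at 0.37. Over 63 chaperone genes above 0 in both groups, the Spearman correlation of GGAC per kilobase with the log2 ratio was -0.38, against -0.08 over 10935 genes. That is a description across genes that share libraries and base composition. A GGAC is not a measured m6A site, and no m6A was measured in these libraries.

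For the members the results turn on, the GGAC nearest to the end of the coding sequence is shown, since m6A is known to be dense around stop codons. Each line gives 24 bases of the most abundant listed transcript with GGAC in capitals.
HSPE1: agtaatggcaGGACaagcgtttag
HSPD1: aagaagagaaGGACcctggaatgg
HSP90AB1: aggcagttaaGGACctggtggtgc
HSPA4: ttcctgaaatGGACattgattgat
CCT8: ctgctgtaaaGGACatgctggaag
DNAJB1: agctccccaaGGACtgaccaggga
HSPA8: aacatttgaaGGACctaaattcgt
HSPA5: tgtaaatactGGACtcaggaactt
The windows lie at chr2:198351817-198351840 for HSPD1, chr6:44220996-44221019 for HSP90AB1, chr5:132440106-132440129 for HSPA4, chr21:30432948-30432971 for CCT8, chr19:14626721-14626744 for DNAJB1, chr11:122928378-122928401 for HSPA8 and chr9:127998821-127998844 for HSPA5 in GRCh37, on the strand of the gene, and that of HSPE1 spans an exon junction between chromosome 2 positions 198365157 and 198365814. The window of DNAJB1 lies after the stop codon, 23 bases from the end of the coding sequence. Those of HSPA5 and HSPA8 also lie after it, 42 and 56 bases from that end. In HSPA4 the site is 7 bases before that end and in HSPE1 297 bases before it.

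Length moved with the spread of ratios over all genes. Among the 25% of genes with the shortest transcripts, up to 1639 bases, 15.3% were higher in KIAA1429 RIP by 2-fold or more and 9.15% were lower by as much, against 2.60% and 4.41% in the longest 25%. The median log2 ratio was 0.23 in the shortest and -0.11 in the longest 25%. Of the chaperone genes, 9 were among the shortest 25%, and these included both members at least 2-fold higher, HSPE1 at 557 bases and DNAJC19 at 1416 bases, as well as DNAJC27, whose most abundant listed transcript has 463 bases. The part of length in these ratios was not tested. Over the chaperone genes themselves the Spearman correlation of length with the log2 ratio was -0.04, against -0.19 over all genes.

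The heat shock element was searched as letters in promoter windows of RefSeq (GRCh38.p14), 250 bases before to 50 after a gene start. The pattern was 3 units in alternation, GAA then TTC then GAA or TTC then GAA then TTC, with any 2 bases between units. The second order is the reverse complement of the first, so both strands were covered, and overlapping matches were allowed. It was present in 6 of 82 windows of the 59 chaperone genes with a window (7.32%), in 0.334% of the windows of all genes tested and in 0.490% of all 35116 windows. Matches are descriptions of letters and not sites of binding. The members with a match were DNAJA1, DNAJB6, HSP90AA1, HSP90AB1, HSPA8 and HSPD1, shown with the pattern in capitals and in the direction of the gene.
DNAJA1: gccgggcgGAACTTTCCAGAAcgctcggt
DNAJB6: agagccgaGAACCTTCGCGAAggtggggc
HSP90AA1: gagggttcTTCCGGAAGGTTCgggaggct
HSP90AB1 upstream match: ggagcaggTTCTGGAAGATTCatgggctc
HSP90AB1 downstream match: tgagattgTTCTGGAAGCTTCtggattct
HSPA8 upstream match: gcgagcttGAAAGTTCCAGAAcgctgcgg
HSPA8 downstream match: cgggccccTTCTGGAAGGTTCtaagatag
HSPD1: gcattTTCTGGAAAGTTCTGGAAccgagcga
In HSPD1 both patterns overlap in 1 stretch at chr2:197500060-197500090. The downstream match of HSPA8 lies at chr11:123062171-123062199 and that of HSP90AB1 at chr6:44247823-44247851, while the match of DNAJA1 at chr9:33025268-33025296 falls just after the gene start. The 6 genes with these letters held no common direction in the precipitates: DNAJA1 had a log2 ratio of 0.55, HSPA8 of 0.10, HSP90AB1 of 0.06, HSPD1 of -0.01, DNAJB6 of -0.13 and HSP90AA1 of -0.29.

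Partners of the chaperones were read in the same way, and none passed the test. The HSP90 co-chaperones had a median log2 ratio of 0.25 over 15 genes, beside 0.01 over all genes tested, 4 with KIAA1429 RIP above and 1 below without overlap, where all genes gave 16.6% and 15.2%. STUB1, the ubiquitin ligase that binds HSP70 and HSP90, read 9.74 and 18.9 FPKM in IgG RIP, against 24.3 and 25.3 FPKM in KIAA1429 RIP. ST13, which bridges HSP70 to HSP90, read 68.6 and 44.4 FPKM against 74.6 and 87.7 FPKM. Exchange factors and the BAG family had a median of -0.03 over 10 genes, 0 above and 2 below, against the same 16.6% and 15.2%. BAG6 was among the latter, with 113 and 111 FPKM in IgG RIP, against 97.2 and 98.8 FPKM in KIAA1429 RIP.

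Prefoldin hands unfolded actin and tubulin to the CCT ring, and its list with other chaperonin cofactors had a median log2 ratio of 0.47 over 9 genes. KIAA1429 RIP was above without overlap in 4 and below in 0, beside 16.6% and 15.2% of all genes. PFDN6 read 34.9 and 21.7 FPKM in IgG RIP, against 63.8 and 57.5 FPKM in KIAA1429 RIP, a log2 ratio of 1.10 (limma unadjusted p = 0.013, adjusted p = 0.993). PFDN1 read 9.30 and 7.95 FPKM against 24.8 and 10.8 FPKM. PFDN5 read 76.4 and 84.8 FPKM against 105 and 128 FPKM. The log2 ratio was below 0 with overlap in PDCL (-0.60), PFDN2 (-0.22), TXNDC9 (-0.18) and PDCL3 (-0.11). HSF1, the heat shock factor, read 42.8 and 49.998 FPKM in IgG RIP, against 30.5 and 42.7 FPKM in KIAA1429 RIP, lower by a small margin. HSF2 read 0 to 2.101 FPKM, and HSF4 was not among the listed genes. Folding factors of the ER and mitochondria had a median of 0.19 over 10 genes with 3 above and 0 below, again beside 16.6% and 15.2% of all genes. CALR read 234 and 158 FPKM against 163 and 140 FPKM, while PDIA3 read 27.9 and 23.1 FPKM against 37.9 and 35.3 FPKM.

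**Figure D3:**
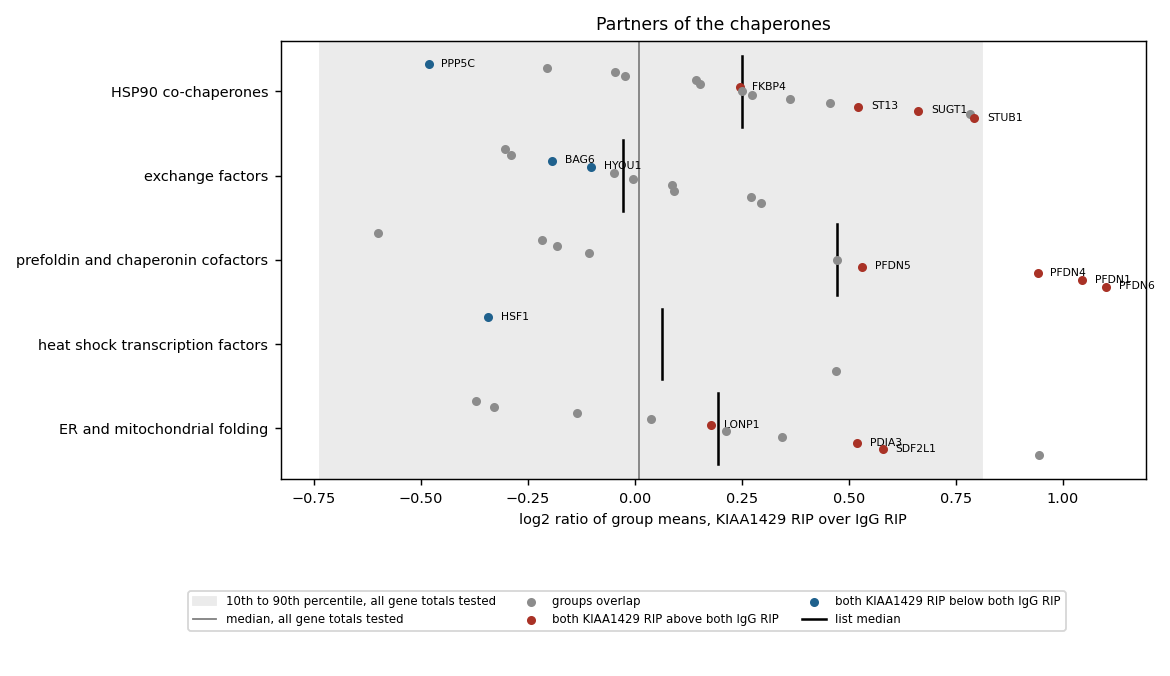
Log2 ratio of group means, KIAA1429 RIP over IgG RIP (x axis), of the tested partner genes in 5 lists (y axis), 1 point a gene. Black bars are list medians; the gray line and band are the median and the 10th to 90th percentile of all 11361 genes tested, and PFDN4, PFDN1, PFDN6 and CLPB lie to the right of the band.

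Replicates of a group were often as far apart as the groups. In IgG RIP, 20 of 65 chaperone genes (30.8%) were at least 2-fold apart between replicates, beside 29.8% of all genes, and in KIAA1429 RIP 12 (18.5%) beside 24.8%. IgG RIP replicate 1 was above replicate 2 in 44 of the 65 (67.7%), beside 58.0% of all genes. Without IgG RIP replicate 1, 13 chaperone genes were at least 2-fold higher in KIAA1429 RIP, and without KIAA1429 RIP replicate 1 there were 0. The share of all genes was not counted with a library left out, so these counts are not read as particular to chaperones.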

How the data were processed

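RNA bound in KIAA1429 RIP (2 libraries) and IgG RIP (2 libraries) from HCCLM3 cells had been selected by poly(A), fragmented and sequenced. The authors deposited 1 table per library with FPKM values per listed transcript. The submitters' processing notes name Bowtie2 2.1.0, whereas the methods of the study name HISAT2 with GRCh37. The FPKM estimator, its annotation release and the strandedness are not given in the sources used here, and FPKM estimated over overlapping transcripts can move between them. A count test could not be used on FPKM.

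FPKM were summed per gene symbol, kept at a mean of at least 1 over the libraries, and fitted as log2(FPKM + 1) in limma 3.58.1 (R 4.3.3, lmFit, eBayes with trend, two-sided, Benjamini-Hochberg over all genes). The fit was also run on simulated data, where recovery of raised genes was required only at a spread well below the fitted one. Power at the spread of these libraries was not established. Log2 ratios of group means used no pseudocount. The genes described are a fixed set of core chaperones, members past a threshold, the 5 highest and 5 lowest ratios, and members at least 2-fold apart without overlap. The members and lists were chosen with earlier results of these data known. Alternatives were pseudocount, filter, scaling, trend, the replicate block, protein-coding or most abundant transcripts and leaving out each library. Sequences came from GENCODE v44 lifted to GRCh37, where 202 of 207 chaperone transcripts were found, 130 with the same ends, and from RefSeq.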

Additional observations from a re-analysis of the deposited data

How the results depend on the processing

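In limma no chaperone gene was called under any of the 14 alternatives, and the lowest adjusted p over them was 0.191, in the fit with the replicate block. That fit called 13 of all genes (12 higher, 1 lower) and 0 chaperone genes or transcripts. The labels do not say whether libraries with the same replicate number were paired. Deviations of same-numbered libraries correlated at 0.19 over all genes and -0.01 over the chaperone genes, which does not settle it. The count of chaperone genes at least 2-fold higher was 1 with a pseudocount of 1 FPKM, 0 with sum scaling, 1 with median scaling, 5 from protein-coding transcripts, 6 from the most abundant transcript and 0 to 13 over libraries left out. Of all genes, 5.76% were at least 2-fold higher with sum scaling and 7.44% with median scaling. The count of chaperone genes at least 2-fold lower was 1 with a filter of 5 FPKM and 3 to 6 over libraries left out. Shares over all genes were not counted for the pseudocount, the stricter filter, the choices of transcripts or a library left out. These counts are therefore not read as particular to chaperones. Over the libraries left out, the chaperone median log2 ratio ran from -0.015 to 0.37 and the CCT/TRiC median from 0.070 to 0.50, and the CCT/TRiC subunits above without overlap numbered 4 to 7, and 0 with sum scaling. DNAJC9 reversed to -0.34 (log2) from protein-coding transcripts and from the most abundant transcript; its noncoding transcripts account for the difference. Of 37 named genes, 20 changed the sign of their log2 fold change under some alternative, and DNAJC9 was the only 1 of these whose groups did not overlap. The cause of the other changes was not tested. With 2 libraries a group and unknown depth, the size of difference that could have been detected was not established. Differences larger than the replicate spread of a gene, such as that of HSPA4, also went without a call.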
